A study of Aspergillus nidulans with 12 samples.

Results

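The velvet family of Aspergillus nidulans has 4 genes: veA (AN1052), velB (AN0363), vosA (AN1959) and velC (AN2059). They were followed here through the chromatin immunoprecipitation sequencing (ChIP-seq) peak lists of 2 regulators, VeA itself and LaeA. A peak was taken as belonging to a velvet gene when its list named that gene as the nearest one. These are 4 of the 9656 genes named in any list. The VeA::FLAG list called on 3 combined libraries held 6 of its 5502 peaks at velvet genes, and the LaeA::FLAG combined list held 5 of its 3333.

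Velvet proteins are fungal transcription factors that share a DNA-binding and dimerization domain. VeA responds to light and favors sexual over asexual development. VelB enters the nucleus with VeA, where both join the putative methyltransferase LaeA in a trimer that governs development and secondary metabolism, and VelB also pairs with VosA, which acts in spore maturation and spore viability. VelC has a role in sexual development.

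The experiment covered 12 libraries of hyphae grown vegetatively for 24 h in liquid glucose minimal medium in the dark. The strain expressing VeA::FLAG (RJW324.3), the strain expressing LaeA::FLAG (RJW302.11) and the untagged wild type, WT (RDIT9.32), each gave 3 libraries with a mouse monoclonal anti-FLAG antibody and 1 library with a control antibody described as anti-rabbit IgG. Each tagged strain was 1 recombinant from a sexual cross, with the tag and the AfriboB marker at the C-terminal end of the veA or laeA open reading frame, so the tagged protein, the strain and the efficiency of its immunoprecipitation cannot be told apart. The sources used here do not say that replicates were separate cultures, and p-values measure only the spread between these libraries, which may be technical.

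Signal means tags in a peak scaled to a library total of 10 M tags. The VeA::FLAG libraries totalled 1456060 to 1893171 tags with 4252 to 5783 peaks each. The LaeA::FLAG libraries totalled 970628 to 3701440 tags with 557 to 2471 peaks, and the WT libraries 319742 to 7974006 tags with 134 to 1831 peaks. A signal of 0 means that no peak was called there, not that no tag was present. The lowest signal called was 82.4 to 99.5 in VeA::FLAG libraries, 121 to 170 in LaeA::FLAG libraries and 85.3 to 235 in WT libraries. WT replicate 3 was the shallowest library, with 1 tag worth a signal of 31.3. Peak widths also differed, from 147 to 269 bp between single lists. Positions are on the A. nidulans FGSC A4 assembly named in the file headers, and distances run from the start of the nearest exon, negative being upstream.

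velB, which encodes the partner of VeA, carried the highest VeA signal of the family. Its main peak lay upstream of exon 1 on chromosome VIII, at 3785058 to 3785322 in the VeA::FLAG combined list, with its center at -456 bp. That peak ranked 5 of 5502 by score. In the single VeA::FLAG libraries the signal there was 3484, 3642 and 2016, against 369, 747 and 538 in the LaeA::FLAG libraries, and no WT library had a peak. The lowest VeA::FLAG value lay well above the highest LaeA::FLAG value, and the peak ranked 4, 3 and 4 in the VeA::FLAG lists but 875, 185 and 228 in the LaeA::FLAG lists. The mean was 3047 ± 897 in VeA::FLAG and 551 ± 190 in LaeA::FLAG (SD, n = 3 each), a log2 difference of 2.48 ± 0.40 (SE), or 5.57-fold. The exact two-sided permutation test gave p = 0.1, the smallest value that 3 libraries against 3 can reach. Per 100 bp of peak, since peak widths differed, the log2 difference was 2.89 ± 0.40 (SE).

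The velB peaks of both proteins lay at nearly the same place. The combined peaks had centers 14 bp apart, at -456 bp for VeA::FLAG and -442 bp for LaeA::FLAG, and the single-library centers ran from -422 to -468 bp in VeA::FLAG and from -463 to -590 bp in LaeA::FLAG. The VeA::FLAG combined signal was 3435 (95% Wilson interval 3276 to 3599), and the LaeA::FLAG one was 574 (520 to 634). Such intervals cover counting error only. The VeA::FLAG IgG library held 0 tags inside the VeA::FLAG combined peak, where the anti-FLAG signal was 240 times a floor of 3 IgG tags. In the LaeA::FLAG combined peak the IgG signal was 127, for a ratio of 4.53. Over the whole merged region of the called velB peaks, 387 bp long, the VeA::FLAG strain had an IgG signal of 141, the LaeA::FLAG strain 168 and WT 115. Tags spread evenly over the 30.5 Mb that the regions span would give 127, and the 3 IgG libraries stood at 0.904 to 1.32 times that even genome. The VeA::FLAG IgG library stood at 1.11 times, so the value of 240 rests on the 0 tags inside the peak alone. Set against an even genome, the anti-FLAG signal in that peak was 39.5 times.

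A weaker VeA peak lay inside velB, close to the start of exon 2. It was in the VeA::FLAG combined list with a signal of 581 at -39 bp from that start, or 331 bp downstream of the start of exon 1, and in 1 single library, VeA::FLAG replicate 2, with 605. No LaeA::FLAG or WT list had a peak there.

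**Figure D1:**
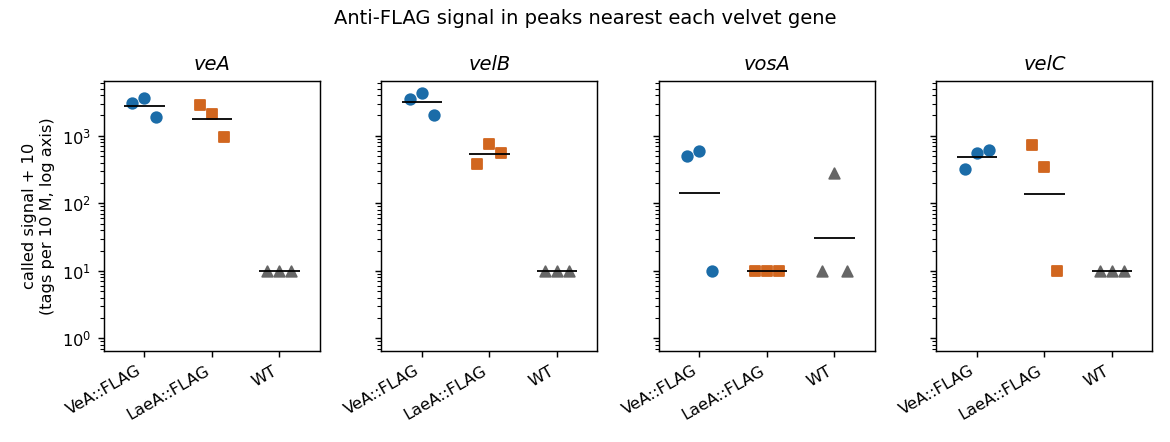
Summed anti-FLAG signal in all peaks whose nearest gene was each velvet gene, plus 10, in tags per 10 M on a log axis. Points are libraries (VeA::FLAG circles, LaeA::FLAG squares, WT triangles) and bars are means on the log scale. Points at 10 had no called peak. All VeA::FLAG libraries lie above all LaeA::FLAG libraries at velB but not at veA.

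veA, the gene of the immunoprecipitated VeA protein, carried strong peaks of both proteins in its own upstream region on chromosome VIII. The nearest site to the gene was called in all 6 tagged libraries and in no WT library, as were 68 of 21897 merged regions (0.311%). The VeA::FLAG libraries had 1044, 1693 and 1205 there, against 2045, 1324 and 933 in the LaeA::FLAG libraries. The 2 groups overlapped fully, with the LaeA::FLAG values spanning those of VeA::FLAG. The mean was 1314 ± 338 in VeA::FLAG and 1434 ± 564 in LaeA::FLAG (SD, n = 3 each), a log2 difference of -0.08 ± 0.39 (SE; exact two-sided permutation test, p = 0.9). Per 100 bp of peak the sign turned, to 0.33 ± 0.55 (SE; exact permutation p = 0.6), so neither direction is given for this site.

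In the combined lists the same veA site stood at 1669966 to 1670230, center -554 bp, with a VeA::FLAG signal of 1809 at rank 14 of 5502. The LaeA::FLAG peak was at 1670038 to 1670314, center -632 bp, with 1390 at rank 38 of 3333. The centers were 78 bp apart. The single-library centers spread over 169 bp in VeA::FLAG and 102 bp in LaeA::FLAG, against 46 bp for VeA::FLAG at velB. The IgG signal was 4.77 in the VeA::FLAG peak, worth 1 tag, and 155 in the LaeA::FLAG peak, for a ratio of 8.99 over IgG. Over the whole merged region the IgG signal was 62.1 in the VeA::FLAG strain, 287 in the LaeA::FLAG strain and 416 in WT. The WT value was 2.05 times an even genome, higher than in 89.1% of merged regions. The part of this background in the anti-FLAG signal was not tested. No WT anti-FLAG library had a peak there.

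veA had a pair of further upstream sites. The middle one, at -1205 to -1254 bp, gave 731, 903 and 670 in VeA::FLAG libraries, and 848 and 757 in LaeA::FLAG replicates 1 and 2. LaeA::FLAG replicate 3 and the WT libraries had no peak. Its IgG signal was 45.3 in the VeA::FLAG strain, 51.4 in the LaeA::FLAG strain and 26.4 in WT, each below an even genome. That was higher than in 56.6% of merged regions for the VeA::FLAG strain, 14.8% for the LaeA::FLAG strain and 18.9% for WT. The anti-FLAG signal stood at 11 to 18 times an even genome in the VeA::FLAG libraries, yet neither combined list held a peak there. Among the 845 merged regions called in all 3 VeA::FLAG libraries, 3.08% held no VeA::FLAG combined peak, and of 181 merged regions called in all 3 VeA::FLAG libraries, at least 2 LaeA::FLAG libraries and no WT library, 2 (1.1%) held no combined peak.

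The distal veA site showed the opposite. It was in both combined lists, with a signal of 1019 at -2048 bp for VeA::FLAG and 473 at -2005 bp for LaeA::FLAG. Single-library peaks were called only in VeA::FLAG replicates 1 and 2, with 1249 and 1049. No LaeA::FLAG library supported the LaeA::FLAG peak, whose ratio over IgG was 2.79, against 9.71 for the VeA::FLAG peak. This site lies more than 1.5 kb upstream of exon 1. The study counted its 1.5 kb of promoter from the translation start, whose distance from the start of exon 1 was not determined here.

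**Figure D2:**
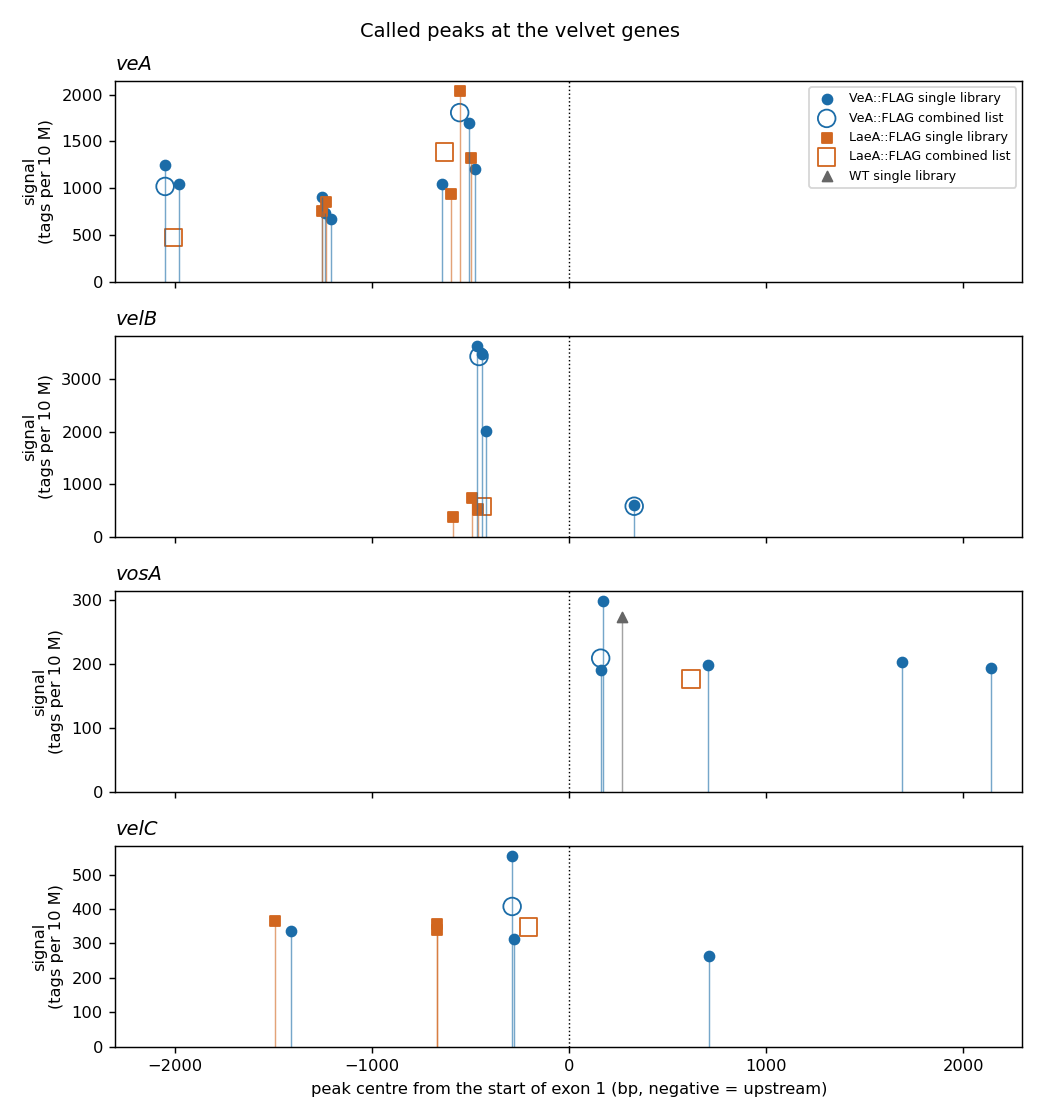
Signal of every peak named for a velvet gene (vertical axes, tags per 10 M, with their own scale per gene) against the distance of its center from the start of exon 1 (bp, negative upstream). Filled symbols are single libraries and open symbols the combined lists, with VeA::FLAG as blue circles, LaeA::FLAG as orange squares and WT as grey triangles. Peaks of veA form 3 upstream clusters, those of velB 1 main cluster, and those of vosA lie downstream of the start of exon 1.

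velC had low and scattered peaks. On chromosome VII, the VeA::FLAG combined peak at 2720918 to 2721182 lay at -288 bp with a signal of 407, rank 1098 of 5502. It matched peaks of 313 and 555 in VeA::FLAG replicates 1 and 2, and VeA::FLAG replicate 3 had none there. The IgG signal was 2.39, less than 1 tag. The LaeA::FLAG combined peak at -205 bp had 347, 2.29 times its IgG signal, with no LaeA::FLAG library supporting it.

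Other velC peaks were called at other places. LaeA::FLAG replicates 1 and 2 shared a site at -669 and -670 bp, with 357 and 340, which neither combined list held. VeA::FLAG replicate 3 had its peaks at -1408 bp, with 337, and near exon 2, with 264, and LaeA::FLAG replicate 1 had a peak of 366 at -1490 bp. So each VeA::FLAG library had signal named for velC, but not at 1 shared site. The peaks at -1408 and -1490 bp lay close to others that named the neighbor AN2060. Those were at -1532 bp in the VeA::FLAG combined list and -1560 bp in LaeA::FLAG replicate 2, so peaks close together carried different names. The effect of the naming on the scatter was not tested. At the -669 bp site the VeA::FLAG IgG library stood at 2.71 times an even genome, higher than in 95.4% of merged regions, and the LaeA::FLAG IgG library at 0.857 times.

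vosA, the spore viability regulator, was the only member with no peak within 1.5 kb upstream of exon 1 that was named for it. Its VeA::FLAG combined peak lay downstream of the start of exon 1, at 2386395 to 2386659 on chromosome VII, center +161 bp, with a signal of 209 at rank 2815 of 5502 and 5.46 times its IgG signal. VeA::FLAG replicates 1 and 2 had 298 and 190 there. WT replicate 2 had a peak of 272 at +268 bp, in the same merged region, so the VeA::FLAG values stood on both sides of a WT value. VeA::FLAG replicate 3 and all LaeA::FLAG libraries had no vosA peak.

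The remaining vosA peaks lay near the starts of inner exons. VeA::FLAG replicate 2 had 198 at exon 2 and 203 at exon 8, and VeA::FLAG replicate 1 had 193 at exon 9. The LaeA::FLAG combined list had 176 at -151 bp from exon 2, 1.93 times an even genome, the lowest of all combined peaks of the family by that measure. Its center lay within 100 bp of that of the exon 2 peak of VeA::FLAG replicate 2.

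Summed over all peaks of a gene, the levels in VeA::FLAG were highest for velB and veA, then velC and vosA. velB had 3484, 4247 and 2016 in VeA::FLAG, 369, 747 and 538 in LaeA::FLAG and 0 in each WT library. veA had 3025, 3645 and 1875 in VeA::FLAG, 2893, 2081 and 933 in LaeA::FLAG and 0 in each WT library. Thus the ranges of velB and veA overlapped in VeA::FLAG, though velB lay above veA within each VeA::FLAG library. In LaeA::FLAG the lowest veA library lay above the highest velB library.

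velC had 313, 555 and 601 in VeA::FLAG, 723, 340 and 0 in LaeA::FLAG and 0 in each WT library. vosA had 491, 592 and 0 in VeA::FLAG, 0 in each LaeA::FLAG library and 0, 272 and 0 in WT. These neighbors in the order overlapped in VeA::FLAG, and both lay below every velB and veA value there.

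Against WT, 3 of the 4 genes had all VeA::FLAG libraries above all WT libraries (veA, velB and velC), as did 12.6% of the 9656 genes, and 0 of 4 had them all below, as did 0.0621%. For LaeA::FLAG these were 2 of 4 (veA and velB), against 1.65% of genes, and 0 of 4 lay below, against 0.0104%. On the log2(signal + 10) scale the difference from WT at veA was 8.11 ± 0.28 (SE) in VeA::FLAG and 7.48 ± 0.48 in LaeA::FLAG, and at velB 8.28 ± 0.32 in VeA::FLAG and 5.75 ± 0.29 in LaeA::FLAG. Both genes had a peak in all 6 tagged libraries and no WT library, as did 0.911% of genes, and 1 of the 4 members, vosA, had a WT peak, as did 19.4%. The log2 sizes depend on the added 10, since WT had no called peak. Each had p = 0.1 by the exact two-sided permutation test, the smallest possible, and after Benjamini-Hochberg adjustment over all genes 0.791 for VeA::FLAG and 1 for LaeA::FLAG. None passed a threshold of 0.05, which this design cannot reach.

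At velC the difference from WT was 5.59 ± 0.29 (SE; exact permutation p = 0.1) for VeA::FLAG and 3.78 ± 1.91 for LaeA::FLAG (exact permutation p = 0.4), where the LaeA::FLAG and WT groups overlapped. At vosA it was 2.25 ± 2.51 for VeA::FLAG and -1.61 ± 1.61 for LaeA::FLAG (exact permutation p = 0.4 and 1), and both pairs of groups overlapped. Single libraries set the size of these values. The velC value for LaeA::FLAG was 5.66 without LaeA::FLAG replicate 3 (exact permutation p = 0.1), the list of 557 peaks, and 2.56 to 3.78 without any other library. The vosA value for VeA::FLAG was 4.17 without VeA::FLAG replicate 3 and 3.85 without WT replicate 2, against 1.22 to 1.44 without any other library. The vosA value for LaeA::FLAG was 0 without WT replicate 2 and -2.41 without WT replicate 1 or 3. Both contrasts share the WT libraries.

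Between the tagged strains, 1 of the 4 genes, velB, had all VeA::FLAG libraries above all LaeA::FLAG libraries, as did 7.17% of genes, and 0 of 4 had them all below, as did 0.466%. The log2 difference for velB was 2.53 ± 0.43 (SE; exact two-sided permutation test, p = 0.1, and 1 after adjustment over all genes). For veA it was 0.62 ± 0.56 (exact permutation p = 0.4), for vosA 3.85 ± 1.93 (exact permutation p = 0.4) and for velC 1.81 ± 1.93 (exact permutation p = 0.7). In the last 3 genes the groups overlapped. With 1 library left out, veA ran from 0.16 (without LaeA::FLAG replicate 3) to 0.97 (without LaeA::FLAG replicate 1), and was 0.42 without VeA::FLAG replicate 2. vosA ran from 2.82 to 5.78, the highest without VeA::FLAG replicate 3 (exact permutation p = 0.1), the library with no vosA peak. velC ran from -0.07 (without LaeA::FLAG replicate 3, the library with no velC peak) to 3.02 (without LaeA::FLAG replicate 1).

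The balance between velB and veA within a library does not depend on how that library was scaled. The ratio of the signal at the velB main site over that at the nearest veA site was 3.34, 2.15 and 1.67 in the VeA::FLAG libraries, against 0.180, 0.564 and 0.576 in the LaeA::FLAG libraries. Every VeA::FLAG library had more signal at velB, and every LaeA::FLAG library more at veA. The mean log2 ratio was 1.20 ± 0.50 in VeA::FLAG and -1.36 ± 0.96 in LaeA::FLAG (SD, n = 3 each), a difference of 2.56 (exact two-sided permutation test, p = 0.1, the smallest possible). The combined lists gave ratios of 1.90 for VeA::FLAG and 0.413 for LaeA::FLAG. This ratio was chosen after the values were seen. The difference of 2.56 is the log2 difference at the velB site (2.48) less that at the veA site (-0.08). It restates those values and is not a separate result.

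**Figure D3:**
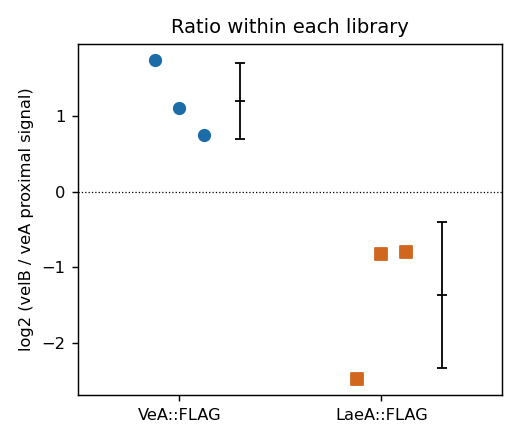
Log2 ratio of the signal at the velB main site over the nearest veA site, within each library (points), with the mean and SD beside them in black. The dotted line marks equal signal. All 3 VeA::FLAG libraries lie above it and all 3 LaeA::FLAG libraries below it.

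All 4 velvet genes were named in both combined lists, as were 18.4% of genes, with 47.1% in the VeA::FLAG list and 29.5% in the LaeA::FLAG list. Within 1.5 kb upstream of exon 1, veA, velB and velC had a peak in both lists, against 7.86% of genes (25.6% in the VeA::FLAG list and 13.6% in the LaeA::FLAG list). Support from single libraries was counted as a center within 100 bp. All 6 peaks of the VeA::FLAG combined list had it from at least 1 VeA::FLAG library, against 77% of that list, 5 from at least 2, against 30.1%, and 2 from all 3, against 7.29%. Those 2 were the main velB peak and the nearest veA peak. Of the 5 LaeA::FLAG combined peaks, 2 had such support in at least 2 LaeA::FLAG libraries, against 10.1% of that list, and these were at the same places. The other 3 had none, while 47.4% of that list had at least 1, and 0 of 5 had all 3, against 2.76%.

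The 2 combined lists shared 4 sites at this distance, 2 at veA, 1 at velB and 1 at velC. These were 4 of the 6 VeA::FLAG peaks, against 15% of that list, and 4 of the 5 LaeA::FLAG peaks, against 24.8% of that list. All 6 VeA::FLAG peaks stood at 4 times IgG or more (or had no IgG tag), against 75.2% of that list counted the same way, and 2 of the 5 LaeA::FLAG peaks did, against 18.1%. No combined peak of the family had a WT peak center within 100 bp, while 2.4% of the VeA::FLAG list and 4.35% of the LaeA::FLAG list did. The vosA peak of the VeA::FLAG combined list did overlap the WT replicate 2 peak, whose center lay just outside that distance.

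**Figure D4:**
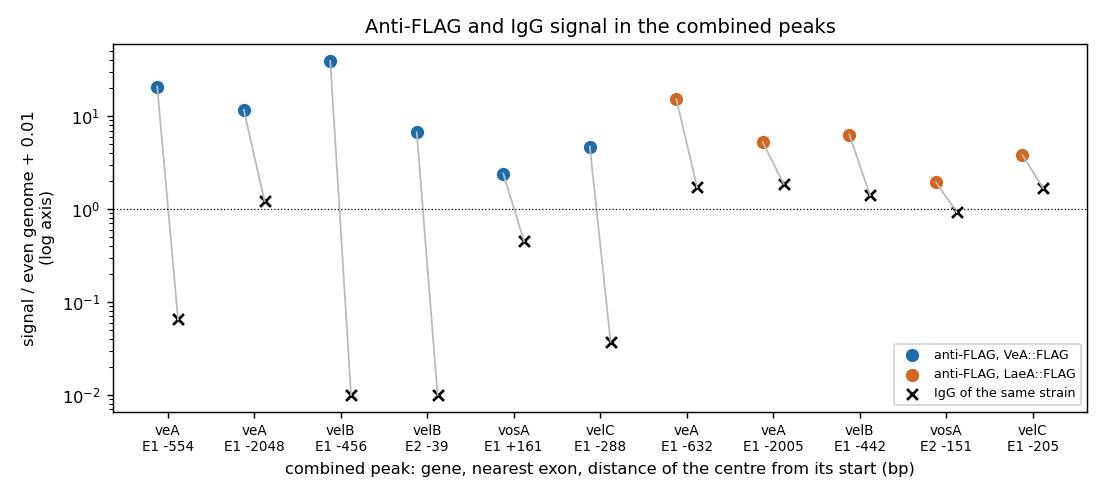
Anti-FLAG signal (circles) and IgG signal of the same strain (crosses) in each combined peak named for a velvet gene, as multiples of the signal that tags spread evenly over the genome would give, plus 0.01, on a log axis. Labels give the gene, the nearest exon (E) and the distance of the center from its start in bp. The crosses of VeA::FLAG run down to 0 tags, while those of LaeA::FLAG stay between 0.923 and 1.87.

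The IgG libraries differed between the strains, so the folds over IgG have unlike denominators. Inside the VeA::FLAG combined peaks, IgG stood at 0 to 1.21 times an even genome, and 34.6% of all peaks in that list had 0 IgG tags. Inside the LaeA::FLAG combined peaks it stood at 0.923 to 1.87 times, and 0 peaks of that list had none. These IgG libraries were of unequal depth. The LaeA::FLAG strain's library totalled 10610394 tags, while the VeA::FLAG strain's library totalled only 2095245. The shares of peaks with 0 IgG tags were not compared at equal depth, so the part of depth in that contrast was not tested. Anti-FLAG signal over an even genome gave 39.5 at velB, 20.8 and 11.7 at veA, 4.68 at velC and 2.40 at vosA in the VeA::FLAG list, with 6.68 at velB exon 2. The LaeA::FLAG list gave 15.3 and 5.20 at veA, 6.32 at velB, 3.82 at velC and 1.93 at vosA. By this measure the order of the genes changed between the proteins, with velB first in VeA::FLAG and veA first in LaeA::FLAG.

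Of 13 genes listed as partners, light receptors or developmental regulators around the velvet proteins, 10 had the listed symbol in the RefSeq gene table and were counted. Shares are of the 9656 named genes, which held 12 of the 13. The VeA::FLAG combined list named 7 of the 10 counted genes, against 47.1% of named genes, and the LaeA::FLAG combined list 4, against 29.5%. Those 4 were in both lists, against 18.4% of genes, and 3 were in neither. In all 3 VeA::FLAG libraries and no WT library, 2 of the 10 had a peak, as did 10.7% of genes. In all 3 LaeA::FLAG libraries and no WT library there were 0 of 10, against 1.22% of genes. The 2 were laeA and wetA, named after their values were seen. Among the 3 in neither list were brlA and abaA, regulators of conidiation, which had no peak in any anti-FLAG library.

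By fold over IgG in a combined list, the 4 genes that the rule named were mpkB, fphA, nsdD and kapA, all in the VeA::FLAG list. The IgG signal in the mpkB peak was 2.39, less than 1 tag, so its fold gives it no rank among them. nsdD, a GATA factor needed for sexual development, had the most signal, with 3987, 1447 and 3867 in VeA::FLAG, 0, 1437 and 1245 in LaeA::FLAG and 0, 351 and 0 in WT. The lowest VeA::FLAG value at nsdD barely cleared the highest LaeA::FLAG value, and 1 WT library also had a called peak. fphA, the red light phytochrome, had 389, 1814 and 1284 in VeA::FLAG, 0, 932 and 0 in LaeA::FLAG and 0, 351 and 0 in WT, so its groups overlapped between the tagged strains.

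mpkB, a mitogen-activated protein kinase gene, had 372, 0 and 718 in VeA::FLAG, 0, 355 and 0 in LaeA::FLAG and 0 in each WT library. kapA, which encodes the importin that carries VeA, had 240, 565 and 0 in VeA::FLAG, and 0 in each LaeA::FLAG and WT library. Neither had a peak in every VeA::FLAG library.

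The genes whose 9 anti-FLAG values were most like those of each member were found by the Euclidean distance of log2(signal + 10) over the 9 libraries. For veA they were AN2042 (distance 1.37), AN12030 (1.56) and AN0186 (1.73). For velB they were AN6116 (1.91), hexA (2.12) and osm1 (2.44). AN6116 had 1495, 2588 and 1995 in VeA::FLAG and 746, 1303 and 632 in LaeA::FLAG, so even the gene most like velB had more LaeA signal beside its VeA signal.

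For velC the nearest were AN5663 (distance 0.53), AN8467 (0.58) and admA (0.80), and for vosA AN2626 (0.45), AN4263 (0.49) and AN8544 (0.61). Each of these vosA-like genes had peaks in VeA::FLAG replicates 1 and 2 and WT replicate 2, and in no other library. Distances are smaller for velC and vosA, whose pattern was set largely by which libraries had any called peak.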

How the data were processed

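ChIP-seq peak lists of 12 libraries (9 anti-FLAG, 3 IgG) were used as deposited. Per the study's methods and the file headers, the authors mapped reads with bowtie2, called peaks with HOMER (version 4.11 per the submitters' processing notes) and annotated each peak to the nearest exon start of the A. nidulans FGSC A4 features. The deposited signal values are tags per peak scaled to 10 M, and the deposited score ranks peaks within a list. The deposited fraction column, the share of a peak's tags near its center, was not used. For the IgG libraries, 1 per strain, the authors counted tags in 21897 regions merged over all peaks, also given as signal.

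Tag totals per library came from the headers. The effective resolution is 1 tag, worth 1.25 to 31.3 in signal, and Wilson 95% intervals cover counting error only. Signal of all peaks naming a gene was summed per library, 10 was added, and log2 values were compared by exact two-sided permutation over 20 splits (Python 3.11.15, NumPy 2.4.6, pandas 2.3.3, SciPy 1.17.1), with Benjamini-Hochberg adjustment over 9656 genes. Peaks matched when centers lay within 100 bp, the distance used in the study. The scripts were tested on simulated data.

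Members and lists were chosen with earlier results of these data known. Named genes were the members, the 3 genes with the closest pattern to each, and up to 4 listed genes by fold over IgG in a combined list. Of the members, 3 matched a RefSeq symbol, and the name velC for AN2059 came with the list of members. The study names velC but gives no AN number for it. Alternatives were another pseudocount, only exon 1 promoter peaks, only peaks of 4-fold over IgG, IgG subtracted, a replicate block, other matching distances, each library left out and, chosen after seeing the data, signal per 100 bp. Sequences are not shown here.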

Additional observations from a re-analysis of the deposited data

Results flagged for a closer look

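The ratio of signal at the velB main site over the nearest veA site lay on opposite sides of 1 in the 2 tagged strains. All 3 VeA::FLAG libraries had a ratio above 1 (1.67 to 3.34) and all 3 LaeA::FLAG libraries one below 1 (0.180 to 0.576). The difference in mean log2 ratio was 2.56, or 5.90-fold, with p = 0.1 in the exact two-sided permutation test, the smallest that 3 against 3 allows. It was 2.01 to 2.84 with each library left out and 2.74 with IgG subtracted. The ratio was picked after the values were seen and is built from the site values given above. It leaves out the other peaks of both genes. Summed over all peaks, velB exceeded veA by less in VeA::FLAG, with 3484, 4247 and 2016 against 3025, 3645 and 1875. In LaeA::FLAG the summed veA signal still lay above that of velB in each library.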

How the results depend on the processing

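Over 12 tests (4 genes in 3 contrasts), 151 of 156 values under an alternative kept their direction, and the lowest p under any was 0.1. Part of these values could not move. Pairing replicates does not alter a difference, nor does leaving out a WT library where no WT library had a peak. With only exon 1 promoter peaks, vosA gave 0 in all 3 contrasts, having none. Leaving out a library gave -2.41 to 0 for vosA in LaeA::FLAG against WT, 2.56 to 5.66 for velC in LaeA::FLAG against WT, 1.22 to 4.17 for vosA in VeA::FLAG against WT, and -0.074 to 3.02 for velC in VeA::FLAG against LaeA::FLAG, negative without LaeA::FLAG replicate 3. In VeA::FLAG against LaeA::FLAG it gave 0.16 to 0.97 for veA, 2.82 to 5.78 for vosA and, for velB, 2.27 to 2.84, and per 100 bp of peak 2.91. Counting only peaks within 1.5 kb upstream of exon 1 left 3 peaks of the 6 in the VeA::FLAG combined list and 3 of the 5 in that of LaeA::FLAG. A fold of 4 over IgG left 2 LaeA::FLAG peaks. With centers within 50 bp, support in 2 libraries fell to 3 of 6 VeA::FLAG peaks, against 5 at 100 bp, and to 0 of 5 LaeA::FLAG peaks, against 2, and shared sites to 2, against 4.

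With replicates paired by number (the replicate block), velB in VeA::FLAG against LaeA::FLAG kept its log2 difference of 2.53 at an exact sign-flip p = 0.25, the smallest 3 pairs allow, and no call changed. The 9 correlations of same-numbered libraries ran from -0.01 to 0.01, and those of other-numbered libraries from -0.06 to 0.07. Values this near 0 in both kinds of pair cannot show whether same-numbered libraries shared a culture or a batch.

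Differing library totals, WT replicate 3 above all, limit which absences can be read, and there was 1 IgG library per strain.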

Other observations

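Some peaks near velvet genes were named for a neighbor. Upstream of vosA, LaeA::FLAG replicate 2 had a peak of 381 at -1169 bp from exon 1 that named AN1958, and VeA::FLAG replicate 3 had 206 at -1569 bp with the same name. Upstream of velC, the VeA::FLAG combined list had 319 at -1532 bp and 257 at -2307 bp, both naming AN2060. LaeA::FLAG replicate 2 had 515 at -1560 bp, also naming AN2060, which is more than either LaeA::FLAG signal at the -669 bp velC site. Upstream of veA, LaeA::FLAG replicates 2 and 3 had 685 and 747 at -2985 and -2895 bp, naming AN10160, and the LaeA::FLAG combined list had 649 at -2983 bp. No VeA::FLAG list had a peak there. These values were noticed after the data were seen and were put to no test.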
